A study of Mus musculus with 16 samples.

Results

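The mitochondrial solute carriers of the SLC25 family were followed in mouse hearts after social stress. Members were the rows of each array that were not control spots and whose gene name was Slc25a followed by a number (the rule uses no measured value). The rule found 62 spots, 53 probes and 44 gene names among 59305 spots and 55681 probes on every array. Of the 44 genes, 38 passed the filter on dim probes and were tested among 22763 features. The 6 others were not well above background on all 4 arrays of any group: Slc25a2, Slc25a21, Slc25a31, Slc25a41, Slc25a43 and Slc25a48. Only their names are given, and statements below on tested members do not cover them.

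SLC25 proteins sit mostly in the inner mitochondrial membrane, where each exchanges or takes up a small molecule that the membrane otherwise holds back. The ADP/ATP and phosphate carriers supply ATP synthase and export its product, the aspartate/glutamate and oxoglutarate carriers run the malate-aspartate shuttle that brings reducing equivalents in from glycolysis, and the carnitine carrier admits long-chain fatty acids for oxidation. The heart lives on oxidative phosphorylation and is rich in the first of these. Other members carry cofactors, nucleotides, iron and amino acids, Slc25a17 lies in the peroxisome and Slc25a46 in the outer mitochondrial membrane.

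The study modelled posttraumatic stress disorder by exposing C57BL/6 mice to the attacks of an aggressor mouse, and RNA from whole hearts was read on 16 Agilent arrays, 1 heart each. In T1R1, T2R1 and T3R1 the mice had 1, 2 or 3 days of exposure and then 1 day of rest, and control mice sat in mesh boxes in a cage that held no aggressor. Each of the 4 groups had 4 hearts. The labels place the control mice in the arm of 2 days of exposure and 1 day of rest, give no sex or age, and describe longer exposures in their general treatment text than in the group names, which were followed here.

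Every array held 59305 spots that were not controls, of which between 46.5% and 67.1% were well above background, and no such spot was saturated. The number of arrays limits the precision. Control and T3R1 arrays came from the same slide and scan and T1R1 and T2R1 arrays from another, so that slide and exposure cannot be told apart when T1R1 or T2R1 is set against control or T3R1. T3R1 against control and T2R1 against T1R1 lie within a slide. Control replicate 1 stood apart: its 75th percentile of signal was 551 scanner units against 258 to 273 in control replicates 2 to 4 and 286 to 408 on the 12 exposed arrays, and its mean correlation over features was 0.988 with T3R1 and 0.970 with the other controls. Results that rest on it are given with and without it. Of 6 cardiomyocyte markers all 6 were well above background on every array, and their summed level, as log2 of the summed scaled signal, ran from 11.20 to 12.36 in control, 11.85 to 12.05 in T1R1, 11.98 to 12.18 in T2R1 and 11.42 to 12.05 in T3R1. Against control, markers of liver passed in no exposure (7 tested), and of skeletal muscle 1 of 4 was higher in T2R1 and in T3R1. Of thymus 1 of 4 was lower in T2R1, where the list's median was 0.64. Without control replicate 1 the only thymus call in T2R1 was Cd8a, higher by 1.89. Of atrial muscle 1 of 5 was lower and of erythroid markers 1 of 4 was higher in T2R1. Of all features, 14.8% were higher and 3.58% lower in T2R1, and 0.505% were higher in T3R1. In whole tissue, fewer cells of a type and less RNA per cell cannot be told apart.

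Motifs of known regulators of mitochondrial genes were searched in the promoters of all tested members for which one was at hand. Promoters of 3 carriers of oxidative metabolism are shown: the phosphate carrier Slc25a3, the aspartate/glutamate carrier Slc25a13 and the ADP/ATP carrier Slc25a4. They were not drawn at random, so their matches do not stand for the family. Levels of these 3 are described further on. Sequences are the 250 bases before the start site from RefSeq on GRCm38.p6, 5′ to 3′ on the gene's strand. Capitals mark a match of the NRF1 motif, read on the opposite strand in Slc25a3, and the E-box, CACGTG, in Slc25a13.
Slc25a3 promoter (chr10:91123968-91124217, - strand): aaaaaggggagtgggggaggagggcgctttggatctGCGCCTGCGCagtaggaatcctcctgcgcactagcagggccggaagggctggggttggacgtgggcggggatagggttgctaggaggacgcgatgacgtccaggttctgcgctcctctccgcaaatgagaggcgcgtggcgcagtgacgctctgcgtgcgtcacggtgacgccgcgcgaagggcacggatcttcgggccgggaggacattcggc
Slc25a13 promoter (chr6:6217174-6217423, - strand): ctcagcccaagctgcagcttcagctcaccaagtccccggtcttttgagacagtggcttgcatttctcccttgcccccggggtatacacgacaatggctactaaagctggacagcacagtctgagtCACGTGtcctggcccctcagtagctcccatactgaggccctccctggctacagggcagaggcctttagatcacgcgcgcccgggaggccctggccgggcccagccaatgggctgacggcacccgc
Slc25a4 promoter (chr8:46211063-46211312, - strand): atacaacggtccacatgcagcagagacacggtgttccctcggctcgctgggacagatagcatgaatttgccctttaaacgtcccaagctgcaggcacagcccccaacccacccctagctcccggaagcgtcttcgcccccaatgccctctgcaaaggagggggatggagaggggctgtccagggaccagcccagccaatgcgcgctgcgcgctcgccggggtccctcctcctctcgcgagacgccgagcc
Searched on both strands over windows of 300 bases (250 before and 50 after the start), the NRF1 motif occurred at 5.19% of 27025 genes and CACGTG at 8.09%. The element of estrogen-related receptors, TNAAGGTCA, occurred at 1.43% of genes and the PPAR element at 0.0481%. None of the 4 patterns occurred in the Slc25a4 window. Only 30 of the 38 tested members had a window, so a share over the members is void and none is given. A match of letters shows no binding.

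Levels below are log2 signals relative to the 75th percentile of the array, and differences are log2 differences ± SE from limma with 4 hearts per group and Benjamini-Hochberg adjustment over all 22763 features (threshold 0.05). Levels of different genes come from different probes and are not compared as expression; features are ordered only by the brightness of their probes. In T1R1 against control 3 of 38 carriers changed, 1 higher and 2 lower, while 9.85% of all features did (7.74% higher and 2.11% lower). T2R1 against control gave 2 of 38, both higher, beside 18.4% of all features. T3R1 against control gave 0 of 38 by limma, beside 0.694% of all features; at an unadjusted p under 0.05 there were 13 carriers and 5099 features. T2R1 against T1R1 also gave 0, and 0% of all features, with 3 carriers and 1782 features at an unadjusted p under 0.05. Between exposures, T3R1 against T1R1 gave 3 of 38 (1 higher, 2 lower; 22.9% of all features, 7.65% higher and 15.2% lower) and T3R1 against T2R1 gave 5 of 38 (3 higher, 2 lower; 26.9% of all features, 6.59% higher and 20.4% lower). The F test over the 4 groups called 7 of 38 carriers and 26.9% of features. All calls between 2 groups lay across slides, where slide and exposure cannot be told apart. The comparisons within a slide, T3R1 against control and T2R1 against T1R1, gave 0. No test compared the family with other genes.

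The median difference of the 38 carriers was -0.080 in T1R1, -0.039 in T2R1 and -0.13 in T3R1 against control, where the median of all features was -0.0060, 0.020 and -0.077. Of the carriers, 24, 20 and 23 had differences below 0. The 3 comparisons share their control hearts. Scaling each array by its median in place of the 75th percentile moved the median of all features to -0.44 in T1R1, -0.37 in T2R1 and -0.11 in T3R1 against control, and turned the split of calls to 0 higher and 19 lower carriers in T1R1 and 0 higher and 14 lower in T2R1. Under that scaling 47.2% of all features were called in T1R1 and 40.2% in T2R1. With quantile normalization the split was 0 and 1 in T1R1 and 0 and 3 in T2R1, and with the authors' values 0 and 1 in T1R1 and 2 and 1 in T2R1. After normexp background correction it was 0 and 1 in T1R1 and 1 and 0 in T2R1. Each carrier called in the main analysis kept its direction under these 4 scalings.

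**Figure D1:**
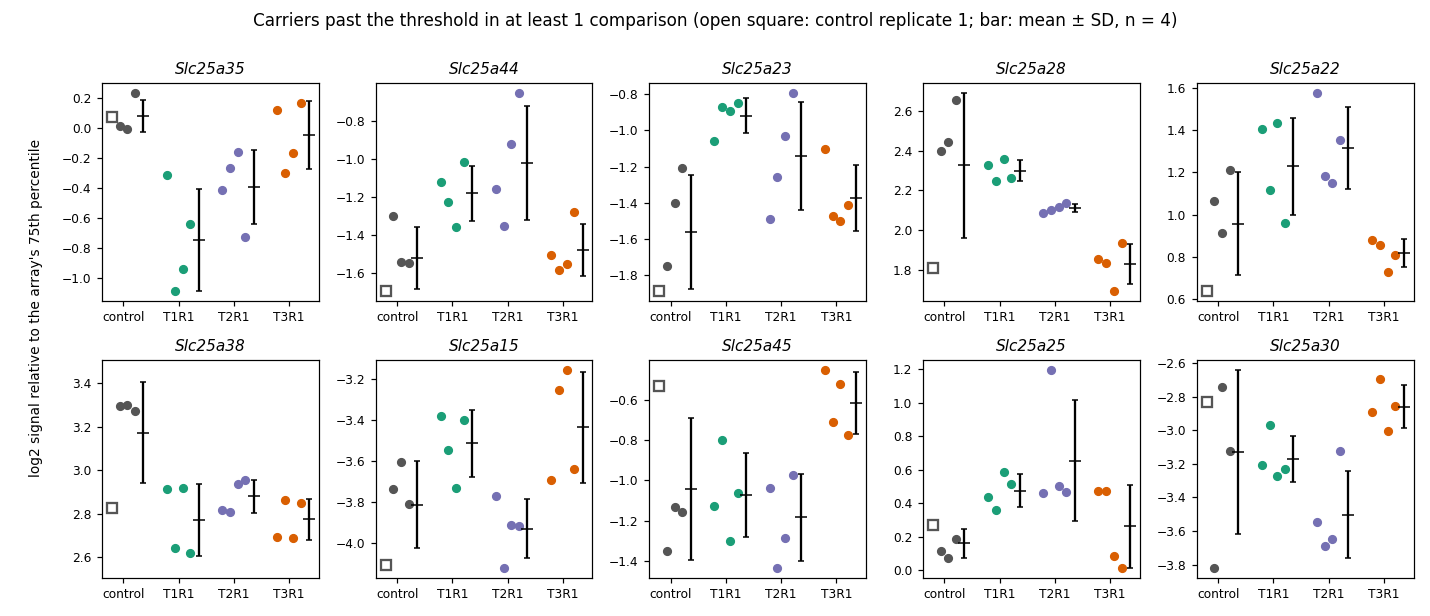
Log2 signal relative to the 75th percentile of the array (vertical axis) in the 4 hearts of each group for the 10 carriers past the threshold in at least 1 test; points are hearts, the open square is control replicate 1 and bars are mean ± SD. Slc25a35 lay lower on all 4 T1R1 arrays than in any control heart, and Slc25a23 higher.

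The clearest member was Slc25a35, a carrier of less settled substrate (probe on chromosome 11 at 68785799 to 68785858; positions are in mm9 throughout). Its level was 0.078, 0.016, -0.0041 and 0.24 in control, -0.31, -1.08, -0.94 and -0.64 in T1R1, -0.41, -0.27, -0.16 and -0.73 in T2R1 and 0.12, -0.30, -0.17 and 0.17 in T3R1. Every T1R1 and every T2R1 heart was below every control heart, and the T3R1 hearts overlapped control. It was 1.77-fold lower in T1R1 than in control, a difference of -0.83 ± 0.17 (adjusted p = 0.00776), and higher in T3R1 than in T1R1 by 0.70 ± 0.17 (adjusted p = 0.00891). The T2R1 difference from control, -0.47 ± 0.17, did not pass (adjusted p = 0.0662). Leaving out any 1 array kept the T1R1 call, with adjusted p from 0.00418 to 0.0264. T1R1 lay on the other slide than control and T3R1. Of 6 tested markers of neurons and Schwann cells, 4 were lower in T1R1 and 3 in T2R1 against control and 3 were higher in T3R1 than in T1R1; their summed log2 level ran from 2.01 to 2.35 in control, 1.37 to 1.87 in T1R1, 1.503 to 1.94 in T2R1 and 1.70 to 2.03 in T3R1, and their part in Slc25a35 was not tested. Of 8 fat markers, 3 were lower in T1R1 than in control and 2 higher in T3R1 than in T1R1. Without control replicate 1, 0 of the 8 were called lower in T1R1 against control, with a list median of -2.13. With all arrays, 2.11% of all features were lower in T1R1 and 3.58% in T2R1 against control. The share higher in T3R1 than in T1R1 was 7.65%. Several hearts high or low in fat markers, whose values are given beside Slc25a1, were so in Slc25a35: control replicates 1 and 4, T1R1 replicate 1 and T3R1 replicates 1 and 4 were the highest of their groups in both, and T2R1 replicate 4 the lowest of its group. Others did not match. In T2R1, replicate 1 was highest in fat markers (0.46) and replicate 3 in Slc25a35 (-0.16). In T1R1, replicate 3 was lowest in fat markers (-2.95) and replicate 2 in Slc25a35 (-1.08). The part of fat in Slc25a35 was not tested.

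Among the ATP-Mg/phosphate carriers, which are gated by cytosolic calcium and set the adenine nucleotide content of the matrix, Slc25a23 rose in T1R1 and Slc25a25 in T2R1. Slc25a23, with a probe on chromosome 17 at 57183867 to 57183926, read -1.89, -1.75, -1.40 and -1.21 in control, -1.06, -0.87, -0.89 and -0.85 in T1R1, -1.49, -1.26, -1.03 and -0.79 in T2R1 and -1.11, -1.48, -1.501 and -1.42 in T3R1. All 4 T1R1 hearts were above all control hearts, by 1.56-fold on average (0.64 ± 0.17, adjusted p = 0.0247). The T1R1 call ended without control replicate 2 or T1R1 replicate 2 or 4, with adjusted p from 0.0171 to 0.0658 and differences from 0.54 to 0.76 over the 16 arrays left out in turn. Slc25a25, on chromosome 2 at 32270275 to 32270334, read 0.27, 0.11, 0.072 and 0.19 in control, 0.44, 0.36, 0.59 and 0.51 in T1R1, 0.46, 1.20, 0.50 and 0.47 in T2R1 and 0.47, 0.47, 0.086 and 0.013 in T3R1. T2R1 hearts did not overlap control, and the mean difference was 0.50 ± 0.16 (adjusted p = 0.0417). T2R1 replicate 2 was the highest heart. That call ended without control replicate 2, 3 or 4, T1R1 replicate 1 or 4, or T2R1 replicate 2 or 3 (adjusted p from 0.0398 to 0.0977, differences from 0.31 to 0.56). Slc25a25 also had a probe at 32270490 to 32270549, which gave 0.54 in T2R1 (adjusted p = 0.0271 with every probe tested on its own). Slc25a24, the remaining tested member of this class, differed from control by 0.021 ± 0.16, -0.015 ± 0.16 and 0.40 ± 0.16 in T1R1, T2R1 and T3R1 and passed in none.

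Of 6 tested carriers of amino acids and carnitine, 1 fell in T1R1 and 1 rose in T2R1 against control, and none passed in T3R1. Slc25a38, which takes up glycine for heme synthesis (chromosome 9 at 120033376 to 120033435), fell in T1R1. It read 2.83, 3.29, 3.30 and 3.27 in control, 2.91, 2.64, 2.92 and 2.62 in T1R1, 2.82, 2.81, 2.94 and 2.95 in T2R1 and 2.69, 2.86, 2.69 and 2.85 in T3R1. Control replicates 2 to 4 were above every exposed heart, and control replicate 1 lay among the exposed hearts. The difference was -0.40 ± 0.11 (adjusted p = 0.0399) in T1R1; it was -0.29 ± 0.11 (adjusted p = 0.0915) in T2R1 and -0.40 ± 0.11 (adjusted p = 0.0823) in T3R1. The T1R1 call ended without control replicate 2, 3 or 4, without T1R1 replicate 2 or 4, or without any 1 of the T2R1 arrays (adjusted p from 0.0054 to 0.114), and was made without control replicate 1 at -0.52 ± 0.091 (adjusted p = 0.0054).

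Slc25a44, the carrier of branched-chain amino acids (chromosome 3 at 88224424 to 88224483), read -1.69, -1.30, -1.54 and -1.54 in control, -1.12, -1.23, -1.36 and -1.02 in T1R1, -1.16, -1.35, -0.92 and -0.65 in T2R1 and -1.51, -1.58, -1.55 and -1.28 in T3R1. It rose in T2R1 against control by 0.50 ± 0.14 (adjusted p = 0.0228) and was lower in T3R1 than in T2R1 by -0.46 ± 0.14 (adjusted p = 0.0257). Groups overlapped in both comparisons. Both lay across slides, and group means were -1.52 in control and -1.48 in T3R1 against -1.18 in T1R1 and -1.02 in T2R1. The T2R1 call ended without control replicate 4 or T2R1 replicate 3 or 4 (adjusted p from 0.00908 to 0.0763), and the T3R1 call ended without T2R1 replicate 3 or 4 or T3R1 replicate 1, 2 or 3 (adjusted p from 0.00873 to 0.082). A second Slc25a44 probe, at 88214562 to 88214621, gave 0.015 in T2R1 against control and did not pass. Slc25a15, the ornithine carrier of the urea cycle (chromosome 8 at 23487872 to 23487931), read -4.11, -3.73, -3.61 and -3.81 in control, -3.38, -3.54, -3.73 and -3.40 in T1R1, -3.77, -4.12, -3.91 and -3.91 in T2R1 and -3.69, -3.25, -3.15 and -3.64 in T3R1. Its probe cleared background on every control and T3R1 array, and on 3 of 4 in T1R1 and in T2R1. T3R1 exceeded T2R1 without overlap, by 0.50 ± 0.14 (adjusted p = 0.0199), a call that ended without T2R1 replicate 2 or T3R1 replicate 2 or 3 (adjusted p from 0.00972 to 0.064).

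Slc25a22, a glutamate carrier (chromosome 7 at 148615651 to 148615710), was lower in T3R1 than in both shorter exposures. It read 0.64, 1.07, 0.91 and 1.21 in control, 1.40, 1.12, 1.43 and 0.96 in T1R1, 1.58, 1.18, 1.15 and 1.35 in T2R1 and 0.88, 0.86, 0.73 and 0.81 in T3R1. The 4 T3R1 hearts lay below all 8 hearts of T1R1 and T2R1. Group means split by slide, 0.96 in control and 0.82 in T3R1 against 1.23 in T1R1 and 1.32 in T2R1. Slide and length of exposure cannot be told apart here. The differences were -0.41 ± 0.14 (adjusted p = 0.0466) from T1R1 and -0.50 ± 0.14 (adjusted p = 0.0168) from T2R1, and T3R1 differed from control by -0.14 ± 0.14 (adjusted p = 0.57). The call against T2R1 ended without T2R1 replicate 1 (adjusted p from 0.00658 to 0.0565 over the arrays left out). The call against T1R1 ended in 11 of 16 such fits: without control replicate 2 or 3, T1R1 replicate 1 or 3, T2R1 replicate 2, 3 or 4, or any 1 of the T3R1 arrays (adjusted p from 0.0215 to 0.125).

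Of the iron and glutathione carriers, Slc25a28, or mitoferrin 2, the iron importer of most cells outside the red lineage (chromosome 19 at 43738444 to 43738503), was lower in T3R1. It read 1.81, 2.40, 2.44 and 2.65 in control, 2.33, 2.25, 2.36 and 2.26 in T1R1, 2.09, 2.10, 2.12 and 2.14 in T2R1 and 1.86, 1.84, 1.70 and 1.94 in T3R1. Every T3R1 heart was below every T1R1 and T2R1 heart, and T2R1 lay between the others with a spread of only 0.020 (SD, n = 4). The difference from T1R1 was -0.47 ± 0.14 (adjusted p = 0.0233). Against control it was -0.49 ± 0.14 (adjusted p = 0.0745), and control replicate 1 was the control heart within the T3R1 range. The T1R1 comparison lost its call without T1R1 replicate 1 or 3 or T3R1 replicate 3 (adjusted p from 0.000405 to 0.0633). The glutathione carriers Slc25a39 and Slc25a40 differed from control by at most 0.21 in size in any exposure and passed in none.

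Slc25a45, of less settled substrate (chromosome 19 at 5885329 to 5885388), and Slc25a30, a carrier related to the uncoupling proteins (chromosome 14 at 76161882 to 76161941), were higher in T3R1 than in T2R1. Slc25a45 read -0.53, -1.35, -1.13 and -1.16 in control, -1.13, -0.80, -1.30 and -1.06 in T1R1, -1.04, -1.43, -1.29 and -0.97 in T2R1 and -0.45, -0.71, -0.52 and -0.78 in T3R1. Its T3R1 hearts were above all T1R1 and T2R1 hearts, and control replicate 1 was the control heart that reached their range. The difference was 0.57 ± 0.17 (adjusted p = 0.0224), and the call ended without T2R1 replicate 2 or 3 or T3R1 replicate 1 or 3 (adjusted p from 0.0040 to 0.0692). Slc25a30 read -2.83, -3.82, -2.74 and -3.12 in control, -3.20, -2.97, -3.27 and -3.23 in T1R1, -3.54, -3.69, -3.65 and -3.13 in T2R1 and -2.89, -2.69, -3.002 and -2.86 in T3R1, and was well above background on 3 of 4 arrays in T1R1 and in T2R1 and on all others. It was higher in T3R1 by 0.64 ± 0.20 (adjusted p = 0.0265), a call that ended without T2R1 replicate 1, 2 or 3 or T3R1 replicate 1 or 2 (adjusted p from 0.00341 to 0.0727).

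The scalings changed some of these calls but not their directions. Of the 3 calls in T1R1 against control, the Slc25a35 call was made under normexp correction, quantile normalization, the median of each array and the authors' values, the Slc25a23 call under none of these 4 and the Slc25a38 call only with the median of each array. In T2R1 against control the Slc25a25 call was made with normexp correction and the authors' values, and the Slc25a44 call under none of the 4. The 3 calls of T3R1 against T1R1 passed under normexp correction, quantile normalization and the authors' values, and with the median of each array the Slc25a22 and Slc25a28 calls were lost, Slc25a22 at -0.0053. Of the 5 calls of T3R1 against T2R1, the Slc25a44 call was lost under all 4 scalings, the Slc25a30 and Slc25a15 calls under normexp correction and the Slc25a22 call with the median of each array; the Slc25a45 call was made under all 4.

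The carriers closest to oxidative phosphorylation passed in none of the 7 tests with all 16 arrays. Slc25a4, the ADP/ATP carrier isoform of heart and muscle (chromosome 8 at 47292828 to 47292887), read 9.50, 10.57, 10.43 and 10.48 in control, 10.31, 10.17, 10.38 and 10.32 in T1R1, 10.44, 10.39, 10.56 and 10.31 in T2R1 and 9.86, 10.07, 9.94 and 10.20 in T3R1. T3R1 hearts lay below all T2R1 hearts, and control replicate 1 was below every other heart. The T3R1 difference from control was -0.23 ± 0.18 (adjusted p = 0.471). The Slc25a4 probe was among the brightest, with only 2 features of higher mean signal, and its unscaled signal ranged from 363582 to 444181 scanner units over the 16 arrays. On control replicate 1 the unscaled signal was 399674, against 377311 to 391398 on the other controls, while its scaled value there was the lowest and the 75th percentile of that array the highest. Unscaled signals of Slc25a3, Slc25a11, Slc25a12 and Slc25a20 were likewise higher on control replicate 1 than on the other controls.

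Slc25a3, which brings phosphate and copper into the matrix (chromosome 10 at 90579539 to 90579598; its promoter is the first shown), read 6.78, 7.68, 7.51 and 7.46 in control, 7.31, 7.11, 7.43 and 7.28 in T1R1, 7.68, 7.31, 7.38 and 7.20 in T2R1 and 6.87, 7.09, 6.86 and 7.09 in T3R1. All T3R1 hearts were below all T1R1 and T2R1 hearts, and control replicate 1 was below them all. Differences from control were -0.076 ± 0.17, 0.035 ± 0.17 and -0.38 ± 0.17 in T1R1, T2R1 and T3R1, the last with an adjusted p of 0.199. A second Slc25a3 probe gave -0.32 in T3R1. Slc25a5, another ADP/ATP carrier, stayed within a narrow range: 5.16, 5.03, 5.06 and 4.93 in control, 4.87, 4.89, 4.96 and 4.98 in T1R1, 5.17, 5.12, 5.06 and 5.14 in T2R1 and 5.05, 5.22, 5.13 and 5.08 in T3R1. Its T1R1 hearts lay below its T2R1 and T3R1 hearts without overlap, and the differences of 0.20 ± 0.071 (adjusted p = 0.636) and 0.19 ± 0.071 (adjusted p = 0.0625) did not pass. Another probe named Slc25a5 lies on chromosome 14, away from the gene on chromosome X, and was not used for it.

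Carriers of the malate-aspartate shuttle did not pass either. Slc25a11, the oxoglutarate carrier (chromosome 11 at 70457739 to 70457798), read 6.91, 7.84, 7.63 and 7.60 in control, 7.56, 7.02, 7.49 and 7.21 in T1R1, 7.65, 7.42, 7.61 and 7.33 in T2R1 and 6.89, 7.28, 7.10 and 7.34 in T3R1. Slc25a12, the aspartate/glutamate carrier of heart, brain and muscle (chromosome 2 at 71112979 to 71113038), read 4.76, 5.56, 5.54 and 5.51 in control, 5.51, 5.07, 5.34 and 5.45 in T1R1, 5.47, 5.47, 5.47 and 5.33 in T2R1 and 4.95, 5.20, 4.83 and 5.25 in T3R1. Control replicate 1 was the lowest of all hearts for Slc25a12, and for Slc25a11 only T3R1 replicate 1 was lower. The T3R1 hearts lay below the T2R1 hearts for Slc25a12 and overlapped them for Slc25a11. Differences of T3R1 from control were -0.35 ± 0.18 for Slc25a11 and -0.29 ± 0.17 for Slc25a12, and neither passed (adjusted p = 0.277 and 0.313).

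Slc25a13, the aspartate/glutamate carrier best known from liver (chromosome 6 at 5991482 to 5991541; its promoter is the second shown), read 3.93, 4.37, 4.37 and 4.18 in control, 4.14, 3.69, 3.95 and 3.80 in T1R1, 4.08, 4.09, 4.204 and 3.98 in T2R1 and 3.89, 4.13, 3.999 and 4.18 in T3R1. Its largest difference was in T1R1, -0.32 ± 0.12 (adjusted p = 0.108), which passed without control replicate 1 at -0.41 ± 0.11 (adjusted p = 0.0257). Slc25a20, the carnitine-acylcarnitine carrier of fatty acid oxidation (chromosome 9 at 108585399 to 108585458), read 2.77, 3.22, 3.36 and 3.25 in control, 3.26, 3.01, 3.38 and 3.38 in T1R1, 3.20, 3.23, 3.31 and 3.23 in T2R1 and 2.81, 3.01, 2.81 and 3.06 in T3R1. T3R1 hearts were below all T2R1 hearts, and the difference of -0.32 ± 0.12 (adjusted p = 0.0684) did not pass; that from control was -0.23 ± 0.12 (adjusted p = 0.29).

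**Figure D2:**
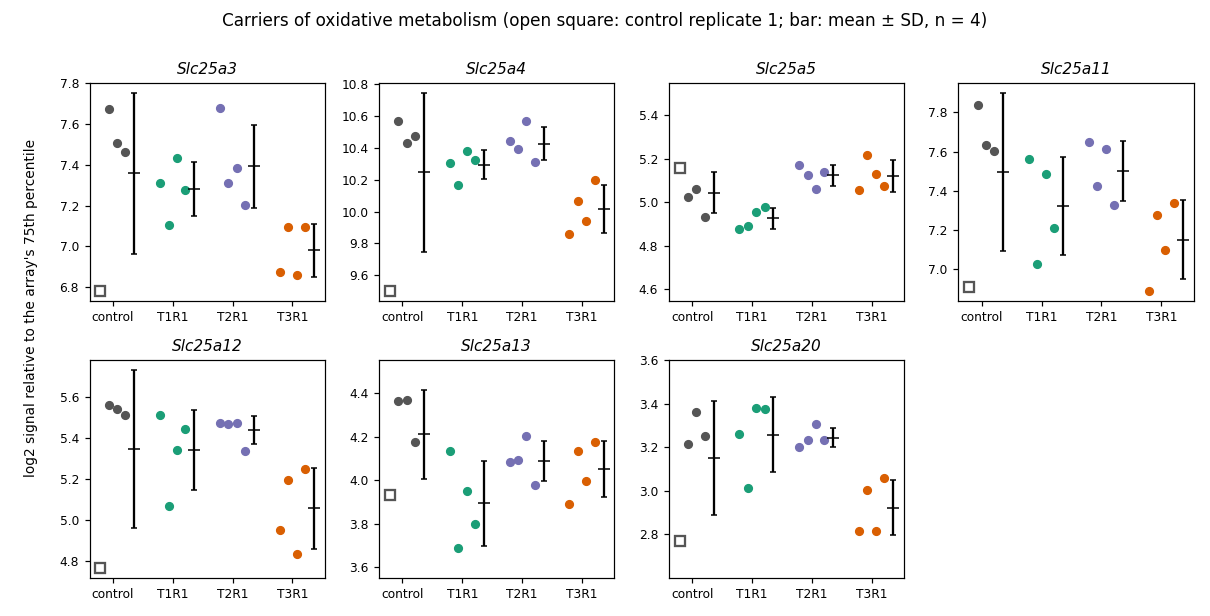
Log2 signal relative to the 75th percentile of the array (vertical axis) in the 4 hearts of each group for 7 carriers of oxidative metabolism; points are hearts, the open square is control replicate 1 and bars are mean ± SD. For Slc25a3, Slc25a4, Slc25a12 and Slc25a20 control replicate 1 lies below all 15 other hearts, and the T3R1 hearts lie below the T2R1 hearts.

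How far the T3R1 comparison rests on control replicate 1 was seen by leaving that array out, an alternative planned for each array. The carriers called in T3R1 against control then went from 0 to 17 of 38 (44.7%), 3 higher and 14 lower, beside 29.4% of all features. Of all features 19.2% were lower, and 2323 of 22763 were higher. The median difference was -0.16 for the carriers and -0.13 for all features. Over the 38 carriers control replicate 1 was below control replicates 2 to 4 for 24 and above them for 11, and it was nearer to the T3R1 mean than to the mean of those controls for 31. That array was singled out from these same values and resembles T3R1 over all features, so these counts describe its weight in the comparison. With array weights, which gave control replicate 1 a weight of 0.142 and the other controls 1.14 to 1.95, all 17 were called among 18, beside 33.7% of all features. The weights were estimated from the same values and nearly set that array aside, so they are no separate check.

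By role, the 14 lower carriers without control replicate 1 included Slc25a3 (-0.57 ± 0.12), Slc25a4 (-0.48 ± 0.093), Slc25a11 (-0.54 ± 0.14), Slc25a12 (-0.48 ± 0.12) and Slc25a20 (-0.35 ± 0.10), carriers of phosphate, ADP/ATP, the shuttle and carnitine. They were lower in scaled values, where the 75th percentile was 337 to 408 scanner units in T3R1 and 258 to 273 in control replicates 2 to 4. For each of them, unscaled signals in T3R1 overlapped those controls. They were 43076 to 51938 against 47062 to 52645 for Slc25a3 and 363582 to 408027 against 377311 to 391398 for Slc25a4. For Slc25a20 they were 2605 to 3051 against 2394 to 2808. The ADP/ATP carrier Slc25a5 (0.11 ± 0.066 (adjusted p = 0.215)) and the shuttle carrier Slc25a13 (-0.25 ± 0.11 (adjusted p = 0.101)) were not called. Slc25a28 differed by -0.67 ± 0.078 and Slc25a38 by -0.51 ± 0.091. The 7 other lower carriers, like Slc25a18 and Slc25a24, were named after their values were seen: the S-adenosylmethionine carrier Slc25a26 (-0.78 ± 0.14), the basic amino acid carrier Slc25a29 (-0.43 ± 0.12), the pyrimidine nucleotide carrier Slc25a33 (-0.54 ± 0.12), the coenzyme A carrier Slc25a42 (-0.59 ± 0.17), and Slc25a34, Slc25a46 and Slc25a47 (from -0.82 to -0.29). Adjusted p for the 14 ran from 0.000136 to 0.0307, and over all alternatives from 0.000136 to 0.827. Higher were Slc25a45 (0.60 ± 0.14), Slc25a24 (0.59 ± 0.12) and the glutamate carrier Slc25a18 (1.23 ± 0.34), the last with a probe well above background on 2, 2, 3 and 4 arrays of control, T1R1, T2R1 and T3R1, which passed the filter through T3R1 alone, and with its direction turned under normexp correction. Slc25a18 had to be high in T3R1 to be tested, and setting it aside leaves 16 calls, 2 of them higher.

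With the same array left out, T1R1 against control gave 7 of 38 carriers, 1 higher and 6 lower, beside 17.8% of all features (9.65% lower), and T2R1 gave 6, 2 higher and 4 lower, beside 24.4% of all features (9.37% lower). Slc25a38, Slc25a26 and Slc25a33 were lower in all 3 exposures, at -0.52 ± 0.091, -0.53 ± 0.14 and -0.47 ± 0.12 in T1R1 and -0.41 ± 0.091, -0.48 ± 0.14 and -0.38 ± 0.12 in T2R1; the 3 exposures share the same 3 controls. With quantile normalization 2 of the 7 T1R1 calls and 2 of the 6 T2R1 calls were made, and those of Slc25a26 and Slc25a33 were lost in both; Slc25a33 was also lost in both under normexp correction and with the authors' values, and Slc25a38 was called under all 4 scalings. The second probe of Slc25a26 differed from control by -0.083, -0.20 and -0.54 in T1R1, T2R1 and T3R1 with all 16 arrays, and the second probe of Slc25a33 by -0.23, -0.27 and -0.30.

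**Figure D3:**
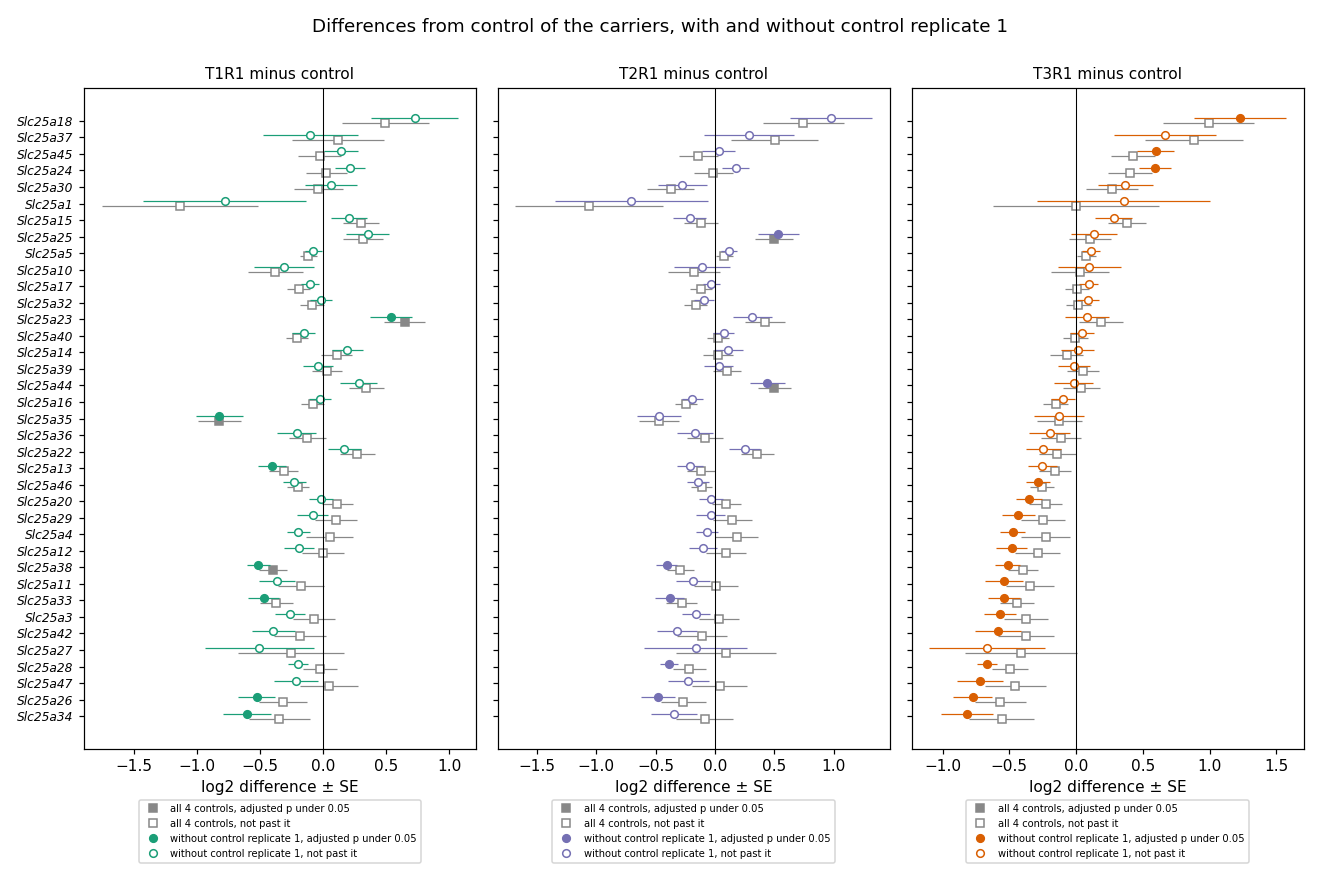
Log2 difference from control ± SE (horizontal axis) of the tested carriers reported by name, in T1R1, T2R1 and T3R1, with all 4 control hearts (grey squares) and without control replicate 1 (coloured circles); filled symbols passed an adjusted p of 0.05. In T3R1 no square is filled and 17 circles are, 14 of them below 0.

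The lower calls went with brightness. When features were put in 10 equal bins by mean level over the 16 arrays, 5.84% of the dimmest bin and 34.6% of the brightest were lower in T3R1 without control replicate 1, with 27.1% in bin 8 and 29.0% in bin 9. Of the 38 carriers, 17 lay in the 3 brightest bins and 12 of these were lower. The part of brightness in the result was not tested. With quantile normalization and without control replicate 1, Slc25a3 differed by -0.41 (adjusted p = 0.0162), Slc25a11 by -0.37 (adjusted p = 0.0490), Slc25a12 by -0.37 (adjusted p = 0.0303) and Slc25a28 by -0.62 (adjusted p = 0.000299), while Slc25a4 differed by -0.12 (adjusted p = 0.128). Of the 17, 13 were called under quantile normalization, 14 in the same direction under normexp correction, 13 with the authors' values and 7 with the median of each array. With the median of each array the calls of Slc25a4, Slc25a11, Slc25a12 and Slc25a20 were lost. Those of Slc25a4 and Slc25a20 were also lost with the authors' values, and that of Slc25a20 under normexp correction. The Slc25a3 and Slc25a28 calls were made under all 4 scalings. Cardiomyocyte markers moved with these carriers: 4 of 6 (Tnnt2, Tnni3, Actc1 and Pln) were lower in T3R1 without control replicate 1, with a median of -0.51. Atrial muscle markers were lower for 3 of 5 (Myl7, Sln and Bmp10, median -0.80), skeletal muscle markers were higher for 2 and lower for 1 of 4, and neuron and Schwann cell markers were lower for 2 of 6. Of all features, 19.2% were lower and 2323 of 22763 were higher in T3R1 without that array. The part of these cell types in the result was not tested.

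Levels of Slc25a1, Slc25a10 and Slc25a37, and in part those of Slc25a35 above, went with markers of other cell types. Slc25a1, the citrate carrier that feeds fatty acid synthesis (chromosome 16 at 17925661 to 17925720; named with Slc25a10 after their values were seen), read 2.95, 1.16, 0.87 and 2.57 in control, 2.53, 0.35, -0.25 and 0.36 in T1R1, 1.27, 1.48, 0.71 and -0.14 in T2R1 and 2.17, 1.22, 1.36 and 2.81 in T3R1. The 8 tested fat markers are given as the mean deviation of each gene from its own mean over the 16 arrays: 2.16, 0.033, -0.061 and 1.69 in control, 1.16, -1.65, -2.95 and -2.41 in T1R1, 0.46, 0.21, 0.27 and -1.85 in T2R1, 1.29, 0.16, 0.18 and 1.28 in T3R1. The 5 hearts highest in Slc25a1 were also the 5 highest in fat markers, and the 4 lowest in Slc25a1 were the 4 lowest. Slc25a10, the dicarboxylate carrier, read -1.16, -1.65, -1.52 and -1.12 in control, -1.003, -1.98, -1.94 and -2.05 in T1R1, -1.70, -1.31, -1.43 and -1.72 in T2R1 and -1.31, -1.27, -1.66 and -1.09 in T3R1. Its 4 highest hearts were among those 5. The summed fat marker level ran from 6.26 to 8.12 in control, 4.61 to 7.36 in T1R1, 5.45 to 6.59 in T2R1 and 6.28 to 7.42 in T3R1. Differences of Slc25a1 from control were -1.14 ± 0.62, -1.06 ± 0.62 and 3.8e-05 ± 0.62, and none passed. The part of fat in them was not tested.

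Slc25a37, or mitoferrin 1, the iron importer of developing red cells (chromosome 14 at 69860020 to 69860079), read 2.45, 3.24, 3.41 and 3.32 in control, 2.999, 4.32, 2.47 and 3.104 in T1R1, 3.64, 3.58, 3.50 and 3.71 in T2R1 and 4.14, 4.86, 3.54 and 3.43 in T3R1. T2R1 and T3R1 hearts were all above the control hearts, by 0.50 ± 0.37 (adjusted p = 0.39) and 0.88 ± 0.37 (adjusted p = 0.177), and neither passed. The 4 tested erythroid markers (Hba-a1, Alas2, Slc4a1 and Ahsp) had mean deviations of -1.13, -0.50, -0.23 and -0.24 in control, -1.10, 0.66, -1.20 and -0.60 in T1R1, 0.78, 0.43, 0.35 and 0.51 in T2R1, 0.81, 2.10, -0.21 and -0.43 in T3R1. The hearts with the highest Slc25a37, T3R1 replicate 2, T1R1 replicate 2 and T3R1 replicate 1, were among the 4 highest in erythroid markers. Epb42 and Kel did not pass the filter on dim probes, and the summed erythroid level ran from 8.76 to 9.95 in control, 8.92 to 10.4 in T1R1, 9.72 to 10.0 in T2R1 and 9.26 to 10.1 in T3R1. The part of red cell RNA in Slc25a37 was not tested.

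**Figure D4:**
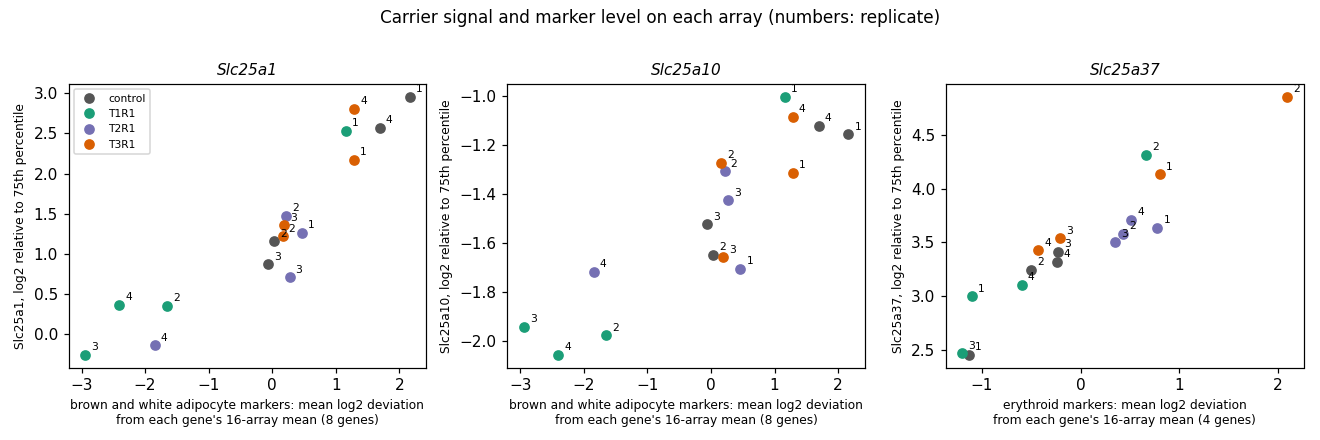
Log2 signal of Slc25a1, Slc25a10 and Slc25a37 relative to the 75th percentile (vertical axes) against the mean log2 deviation of fat or erythroid markers from each gene's mean (horizontal axes); points are the 16 hearts, coloured by group and numbered by replicate. The hearts highest in Slc25a1 are the ones highest in fat markers.

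The other tested members passed in no test with all 16 arrays and were named after their values were seen. The cofactor and nucleotide carriers Slc25a16, Slc25a17, Slc25a32, Slc25a33, Slc25a36 and Slc25a42 had differences from -0.37 to -0.084 in T1R1, -0.28 to -0.084 in T2R1 and -0.44 to 0.016 in T3R1. All 6 were below control in T1R1 and in T2R1, and the 2 sets of differences share their controls. Among the carriers related to uncoupling proteins, Slc25a14 differed from control by 0.10 ± 0.13, 0.028 ± 0.13 and -0.071 ± 0.13. Slc25a27 read -0.33 in T2R1 replicate 4 and from -2.78 to -2.50 in the rest of that group, and its T2R1 difference was 0.092 ± 0.42. Over the 20 members that the naming rule did not pick, the lowest adjusted p was 0.0827 in T1R1, 0.0791 in T2R1 and 0.0859 in T3R1 against control.

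Genes around the carriers were read from lists of the pathway. Of 6 tested carrier family genes with other names, 2 were lower in T1R1 against control, beside 2.11% of all features. Mtch1, a carrier-like protein of the outer membrane, fell by 0.38 on the log2 scale (SE 0.093, adjusted p = 0.0196), and was higher in T3R1 than in T1R1 by 0.40 ± 0.093 (adjusted p = 0.00763). Ucp1, the uncoupling protein of brown fat and itself a fat marker here, read 5.51, 2.34, 1.71 and 3.68 in control, 2.63, -1.84, -4.94 and -6.11 in T1R1, 3.32, 1.45, 3.91 and -2.01 in T2R1 and 5.07, 2.24, 2.73 and 2.75 in T3R1. It differed in T1R1 by -5.88 ± 1.68 (adjusted p = 0.0406) and by -5.14 ± 1.81 (adjusted p = 0.0651) without control replicate 1, where it no longer passed. Ucp2 and Ucp3 passed in no comparison.

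Of 21 other transporters of the mitochondrial membranes, 0 passed by limma in any exposure against control with all 16 arrays, beside the background given above. Tspo, a cholesterol-binding protein of the outer membrane, read 4.55, 3.49, 3.46 and 3.80 in control, 3.61, 4.12, 3.58 and 3.61 in T1R1, 3.70, 4.09, 3.79 and 3.84 in T2R1 and 4.78, 4.55, 4.63 and 4.61 in T3R1. It was higher in T3R1 than in T1R1 by 0.91 ± 0.20 (adjusted p = 0.00572) and than in T2R1 by 0.79 ± 0.20 (adjusted p = 0.0109), and without control replicate 1 it exceeded control by 1.06 ± 0.14 (adjusted p = 0.000314). Without that array 7 of 21 passed in T3R1, a share near the 29.4% of all features, 2 higher (Tspo and Mcub) and 5 lower (Mpc1, Mpc2, Abcb10, Vdac1 and Vdac3). Mpc1 and Mpc2 form the mitochondrial pyruvate carrier, and the Vdac genes encode pores of the outer membrane.

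Of 15 tested genes of protein import into mitochondria, a list not limited to carrier import, 2 were lower in T1R1 against control. The share of all features lower there was 2.11%. The 2 were Timm22, the core of the carrier translocase, by -0.31 ± 0.081 (adjusted p = 0.0258), and the chaperone Timm13 by -0.28 ± 0.077 (adjusted p = 0.0337). Timm10, another chaperone of carrier import, was lower in T3R1 than in T2R1 by -0.44 ± 0.10 (adjusted p = 0.0053). Without control replicate 1, 3 of 15 were lower in T3R1 against control (Timm8b, Timm10 and Timm23), a share near the 19.2% of all features that were lower. Among 14 regulators of mitochondrial gene expression, 1 passed in an exposure against control with all arrays, Gabpa in T2R1 by -0.32 ± 0.10 (adjusted p = 0.0342). The share of all features lower in T2R1 was 3.58%. Tfb2m, a transcription factor of mitochondrial DNA, was lower in T3R1 than in T1R1 by -0.41 ± 0.11 (adjusted p = 0.0142). Without control replicate 1, 9 of 14 regulators were lower in T3R1, with a median of -0.41 for the list, beside 19.2% of all features. They were Ppargc1a, Ppara, Esrra, Esrrb, Esrrg, Tfam, Perm1, Tfb2m (-0.59 ± 0.084) and Gabpa (-0.32 ± 0.10). Ppargc1a, a coactivator of mitochondrial biogenesis named after its values were seen, had the largest difference, -1.09 ± 0.13 (adjusted p = 0.000199), and was also lower in T1R1 (-1.02 ± 0.13) and T2R1 (-1.06 ± 0.13).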

How the data were processed

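Total RNA of 16 individual hearts was labelled with Cy3 and hybridised to 1-colour Agilent arrays with probes placed on the mm9 build. Per the file headers, the authors read spots with Feature Extraction 10.7.3.1, which gave background-corrected intensity values per spot with flags for spots well above background; flags were used as the deposited calls. The authors' deposited value table holds log2 values whose distribution is equal on every array (median 6.10); how they were made was not stated in the sources read, and the table served as an alternative. Here, log2 intensity was taken relative to the 75th percentile of each array, with outlier spots left out, spots of a probe averaged, probes kept if well above background on all 4 arrays of a group (31390 of 55681), and the probe of highest mean kept per gene. limma 3.58.1 in R 4.3.3 was fitted to all 16 arrays and 22763 features with Benjamini-Hochberg adjustment, and the fit was tested on simulated data. Alternatives were normexp with an offset of 50, quantile and median scaling, the authors' values, array weights, other filters, thresholds and fits, the replicate number as a block and each array left out. Members and lists were chosen with earlier results of these data known. Values on every array are given for carriers past 0.05 in any of 7 tests and for 8 fixed ones (Slc25a3, Slc25a4, Slc25a5, Slc25a11, Slc25a12, Slc25a13, Slc25a20 and Slc25a37), and up to 3 genes of smallest F test p are named with values per list; other carriers were named after their values were seen. Lists of markers of other cell types and of related mitochondrial genes are described by counts. A few items are counted but not reported here by name.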

Additional observations from a re-analysis of the deposited data

Results flagged for a closer look

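In each of 152 sets of 4 hearts (38 carriers in 4 groups), the heart farthest from its neighbours was compared with the range of its set, and 13 hearts lay beyond Dixon's critical value; chance alone gives about 1 set in 20. Of the 13, 6 were control replicate 1, whose log2 levels were 2.83 for Slc25a38, 9.50 for Slc25a4, 4.76 for Slc25a12, 2.36 for Slc25a17, 2.03 for Slc25a26 and 3.18 for Slc25a42, each below control replicates 2 to 4 except for Slc25a17, where it was above them. The others were scattered over genes: 1.20 for Slc25a25 in T2R1 replicate 2, 5.33 for Slc25a12 in T2R1 replicate 4, -1.003 for Slc25a10 in T1R1 replicate 1, -4.65 for Slc25a18 in T2R1 replicate 4, -0.33 for Slc25a27 in T2R1 replicate 4, 2.89 for Slc25a33 in T2R1 replicate 3 and 0.12 for Slc25a36 in T2R1 replicate 1.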

How the results depend on the processing

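With the main settings, carriers called were 7 in the F test, 3 in T1R1 against control, 2 in T2R1 against control, 0 in T3R1 against control, 0 in T2R1 against T1R1, 3 in T3R1 against T1R1 and 5 in T3R1 against T2R1. Scaled to the median of each array, carriers called were 20 in the F test, 19 in T1R1 against control, 14 in T2R1 against control, 14 in T3R1 against T1R1 and 8 in T3R1 against T2R1. Of all features, 56.1%, 47.2% and 40.2% were called in the first 3 of these tests. With no filter on dim probes, carriers called were 1 in the F test and 1 in T2R1 against control. With array weights, carriers called were 23 in the F test, 6 in T1R1 against control, 8 in T2R1 against control, 18 in T3R1 against control, 8 in T3R1 against T1R1 and 15 in T3R1 against T2R1. The shares of all features in the first 4 of these were 58.7%, 18.6%, 38.5% and 33.7%. Without control replicate 1 and T1R1 replicate 1, carriers called were 26 in the F test, 12 in T1R1 against control, 7 in T2R1 against control, 17 in T3R1 against control, 9 in T3R1 against T1R1 and 14 in T3R1 against T2R1. In the first 4 of these, 51.1%, 22.0%, 25.9% and 31.0% of all features were called. After normexp correction, carriers called were 1 in T1R1 against control, 1 in T2R1 against control, 7 in T3R1 against T1R1 and 8 in T3R1 against T2R1. Features called against control were then 4.74% of all in T1R1 and 11.4% in T2R1. With quantile normalization, carriers called were 1 in T1R1 against control and 6 in T3R1 against T1R1. With the authors' values, carriers called were 1 in T1R1 against control, 11 in T3R1 against T1R1 and 11 in T3R1 against T2R1. With only the 2 groups compared in the fit, carriers called were 1 in T1R1 against control, 1 in T2R1 against control, 5 in T3R1 against T1R1 and 14 in T3R1 against T2R1. The T2R1 call against control was a lower carrier, and 0 of the main T2R1 calls, both higher, were made. Against control 4.28% of all features were called in T1R1 and 16.6% in T2R1. With normexp background correction and control replicate 1 left out, carriers called were 6 in T1R1 against control, 4 in T2R1 against control and 15 in T3R1 against control. The shares of all features were 13.8%, 19.3% and 41.9%. With quantile normalization and control replicate 1 left out, carriers called were 2 in T1R1 against control, 3 in T2R1 against control and 14 in T3R1 against control. With median of each array and control replicate 1 left out, carriers called were 22 in T1R1 against control, 18 in T2R1 against control and 7 in T3R1 against control. In T1R1 43.5% and in T2R1 38.1% of all features were called. With authors' values and control replicate 1 left out, carriers called were 3 in T1R1 against control, 7 in T2R1 against control and 14 in T3R1 against control. At an adjusted p of 0.1, carriers called were 7 in T2R1 against control, 3 in T3R1 against control, 7 in T3R1 against T1R1 and 10 in T3R1 against T2R1. With an intensity trend and robust prior, carriers called were 5 in T3R1 against T1R1. Settings that join control replicate 1 left out with another scaling were chosen after seeing the data. Leaving out each array in turn gave 1 to 22 in the F test, 1 to 7 in T1R1 against control, 0 to 6 in T2R1 against control, 0 to 17 in T3R1 against control, 0 to 0 in T2R1 against T1R1, 1 to 12 in T3R1 against T1R1, 2 to 13 in T3R1 against T2R1. Replicate numbers did not pair the hearts: of 24 pairs with the same number in different groups 9 had correlated deviations over 0.1 (range -0.32 to 0.39), and 5 of 16 arrays correlated best with their own number. With the replicate number as a block the calls were 5 in the F test and 3 in T1R1 against control, 2 in T2R1 against control, 0 in T3R1 against control, 0 in T2R1 against T1R1, 2 in T3R1 against T1R1, 5 in T3R1 against T2R1. Main calls among them were 3 in the F test, 2 in T1R1 and 1 in T2R1 against control. Causes of these changes were not tested. No carrier called with the main settings changed direction. Probes such as those of Slc25a15, Slc25a18 and Slc25a30 lie near background.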
